A study of Mus musculus with 56 samples.

Results

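Interferon-stimulated genes are genes that cells switch on in response to interferon. A set of 9 was followed in mouse liver: Isg15, Ifit1, Ifit2, Ifit3, Irf7, Oasl2, Rsad2, Usp18 and Bst2. They were found by symbol in a table of 21935 genes, and all 9 were present and passed the filter on low counts. The samples were terminal livers of 56 male C57BL/6J mice, 8 in each of 7 groups. Chow vehicle mice ate chow. All other mice ate the AMLN diet (high in fat, cholesterol and fructose) and were kept only if a liver biopsy showed steatosis and fibrosis, so they model diet-induced obesity with metabolic dysfunction-associated steatohepatitis (DIO-MASH). They were dosed under the skin once a day for 8 weeks with vehicle, zalfermin (a long-acting FGF21 analog) at 0.05 mg/kg (zalfermin low) or 0.2 mg/kg (zalfermin high), semaglutide (a GLP-1 receptor agonist) at 3 µg/kg (semaglutide low) or 120 µg/kg (semaglutide high), or both low doses together (combination). The doses of the combination are those of the study's methods, since the deposited design text names both high doses. Libraries held 5228187 to 20885786 counted reads, with a median of 12206788.

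Interferons are secreted proteins that bind receptors on the cell surface, and the receptors signal through JAK kinases and STAT proteins. Type I interferon leads to a complex of STAT proteins with IRF9 that binds the interferon-stimulated response element (ISRE) of its target genes, whereas the response to interferon gamma runs through the gamma-activated site (GAS). Isg15 encodes a ubiquitin-like protein that is joined to other proteins, and Usp18 encodes the protease that removes it and also dampens signaling at the type I receptor. Ifit1, Ifit2 and Ifit3 encode tetratricopeptide proteins, some of which bind foreign RNA. Oasl2 belongs to the oligoadenylate synthetase family. Rsad2 encodes viperin, an enzyme that makes a chain-terminating nucleotide. Bst2 encodes tetherin, which holds budding virus particles at the membrane. Irf7 is a transcription factor that drives production of type I interferon.

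On GRCm38 with GENCODE M21, Ifit1 (19:34640871-34650009), Ifit2 (19:34550694-34576419) and Ifit3 (19:34583531-34588731) lie near each other on the plus strand of chromosome 19. Usp18 lies on the plus strand at 6:121245906-121270917 and Oasl2 on the plus strand at 5:114896936-114912234. The minus strand carries Isg15 (4:156199424-156200818), Irf7 (7:141262706-141266481), Rsad2 (12:26442746-26456452) and Bst2 (8:71534255-71537456). Irf7 overlaps Phrf1, and Usp18 overlaps Gm44148, each on the other strand. Whether reads were counted by strand is not stated, so the reads of these overlapping pairs cannot be told apart. Ifit3 has a close copy, Ifit3b, with which it may share reads.

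Promoter sequences of 8 of the 9 genes were taken from RefSeq (GRCm38.p6), each 250 bases before the start site and 50 after it. The ISRE core was searched on both strands as GAAA, then NN (any bases), then GAAA, which reads TTTC, NN, TTTC on the other strand. Of the 8 genes, 5 held it, against 3.44% of 32851 promoters of the same length. It was also held by 30 of 63 other type I interferon-stimulated genes and by 14 of 24 genes induced by interferon gamma. The windows of the 5 members are shown because the core sits in each of them before the start site. Capitals mark the core matches, some of which overlap, and each window reads 5′ to 3′ along the gene's strand.
Isg15, chr4:156200835-156200936, minus strand: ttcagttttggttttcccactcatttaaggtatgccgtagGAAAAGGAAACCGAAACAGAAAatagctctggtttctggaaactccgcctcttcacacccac
Ifit1, chr19:34640745-34640853, plus strand: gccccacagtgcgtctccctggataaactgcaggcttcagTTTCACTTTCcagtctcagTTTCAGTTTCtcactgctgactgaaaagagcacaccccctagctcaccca
Ifit3, chr19:34583333-34583456, plus strand: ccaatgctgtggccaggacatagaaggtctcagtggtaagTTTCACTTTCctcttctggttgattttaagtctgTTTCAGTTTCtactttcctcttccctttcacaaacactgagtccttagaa
Rsad2, chr12:26456523-26456612, minus strand: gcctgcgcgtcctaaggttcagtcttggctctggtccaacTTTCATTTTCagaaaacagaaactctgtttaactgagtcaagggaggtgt
Bst2, chr8:71537547-71537642, minus strand: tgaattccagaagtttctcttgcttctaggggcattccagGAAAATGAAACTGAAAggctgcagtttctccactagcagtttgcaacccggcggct
Isg15 held 3 overlapping matches, the first beginning at position -78 from the start site. Ifit1, Ifit3 and Bst2 held 2 each and Rsad2 held 1. Ifit2, Irf7 and Oasl2 held none in this window. The GAS letters TTCNNNGAA, which read the same on both strands, were found in Ifit2 and Bst2, against 8.3% of all promoters. They were found in 7 of 63 other type I genes and 9 of 24 gamma-induced genes. A match describes the letters only and was not tested as a binding site.

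Counts were scaled to library size as CPM (TMM library sizes) and tested with edgeR's quasi-likelihood test in one fit of all 7 groups. Adjusted p-values below are from this test with Benjamini-Hochberg adjustment over 14105 genes, at a threshold of 0.05. Log2 fold changes are given with their standard error (SE). In DIO-MASH vehicle livers, mean levels per kilobase of exon were 162.5 CPM per kb for Bst2, 12.2 for Irf7, 10.9 for Isg15, 8.13 for Ifit3, 5.06 for Ifit1, 5.01 for Usp18, 3.2 for Ifit2, 2.84 for Rsad2 and 2.34 for Oasl2. By this measure Bst2 was by far the most abundant per length, and the other genes had 12.2 CPM per kb or less. The length joins the exons of all annotated transcripts of a gene. For Irf7 it is 3776 bases, the whole gene, so its level per kb may be understated.

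**Figure D1:**
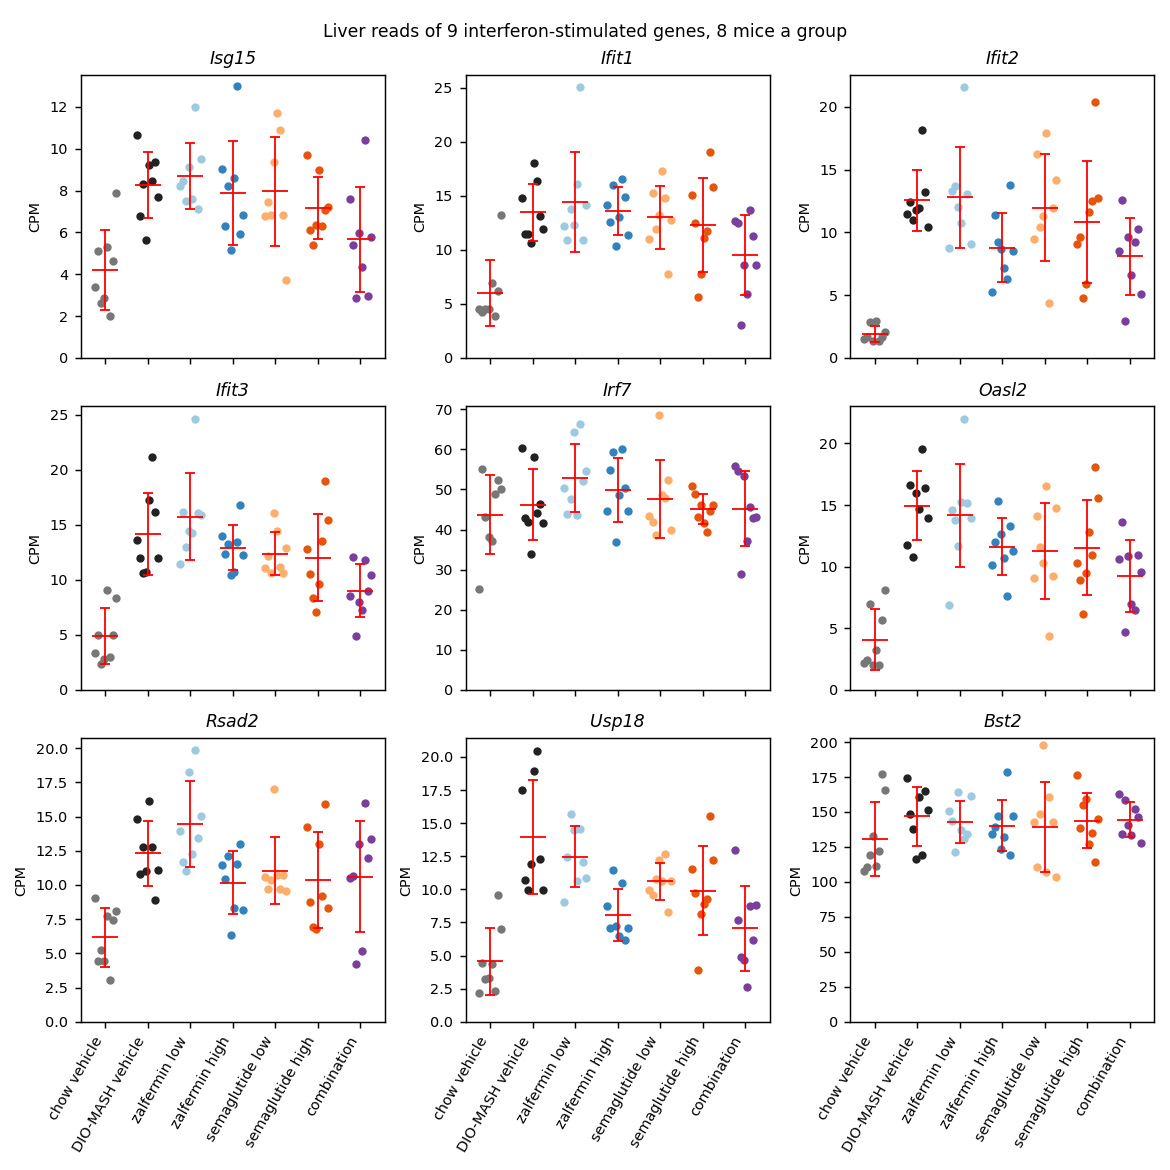
CPM of each gene (vertical axis, linear, from 0) in each of 8 mice per group (points), with the mean and SD in red. Chow vehicle has the lowest mean for all 9 genes, far below the others for Ifit2 (1.92 against 12.6 CPM in DIO-MASH vehicle) and close to them for Irf7 (43.7 against 46.2 CPM) and Bst2.

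Chow-fed livers were compared with DIO-MASH vehicle livers to ask what the diet changed. Of the 9 genes, 7 were lower and 0 higher in chow-fed livers, where 28.9% of all genes tested were lower and 55.4% changed in either direction. The median log2 fold change of the 9 genes was -1.18, beside -0.01 over all genes tested. Ifit2 stood furthest apart. It ranged from 1.31 to 2.91 CPM in chow-fed mice (median 1.66) and from 10.5 to 18.2 CPM in DIO-MASH vehicle mice (median 11.9). No chow-fed mouse reached a DIO-MASH vehicle mouse, and the level was 6.75-fold higher in DIO-MASH vehicle livers (log2 fold change -2.75 for chow, SE 0.28, adjusted p = 8.9e-12).

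Oasl2 ranged from 1.98 to 8.12 CPM in chow-fed mice (median 2.82) and from 10.8 to 19.5 CPM in DIO-MASH vehicle mice (median 15.3). These groups did not overlap either, and Oasl2 was lower in chow-fed livers by -1.95 on the log2 scale (SE 0.26, adjusted p = 1.06e-08). Usp18 ranged from 2.15 to 9.58 CPM in chow-fed mice (median 3.85) and from 9.92 to 20.5 CPM in DIO-MASH vehicle mice (median 12.1). Its highest chow-fed mouse lay just under the lowest DIO-MASH vehicle mouse, with a log2 fold change of -1.63 (SE 0.25, adjusted p = 1.98e-07). Ifit3 ranged from 2.39 to 9.05 CPM in chow-fed mice (median 4.18) and from 10.6 to 21.2 CPM in DIO-MASH vehicle mice (median 12.8). It too was lower without overlap, by -1.54 on the log2 scale (SE 0.21, adjusted p = 1.96e-08). These 4 genes were the members whose groups did not overlap, against 9.49% of all genes tested in this direction.

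Ifit1 ranged from 3.84 to 13.2 CPM in chow-fed mice (median 4.54) and from 10.6 to 18 CPM in DIO-MASH vehicle mice (median 12.5). A single chow-fed mouse, number 8, reached the DIO-MASH range, and the log2 fold change was -1.18 (SE 0.23, adjusted p = 2.85e-05). Isg15 ranged from 2 to 7.88 CPM in chow-fed mice (median 4) and from 5.65 to 10.7 CPM in DIO-MASH vehicle mice (median 8.4). The same chow-fed mouse was the highest, and the log2 fold change was -0.97 (SE 0.22, adjusted p = 2.51e-04). Rsad2 ranged from 3.07 to 9.03 CPM in chow-fed mice (median 6.34) and from 8.92 to 16.2 CPM in DIO-MASH vehicle mice (median 11.9), with a log2 fold change of -1 (SE 0.21, adjusted p = 7.97e-05). For each of these 3 genes, 7 of 8 chow-fed mice lay below every DIO-MASH vehicle mouse.

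Irf7 and Bst2 did not pass the threshold. Irf7 ranged from 25.2 to 55 CPM in chow-fed mice (median 46) and from 33.9 to 60.4 CPM in DIO-MASH vehicle mice (median 43.4). Its log2 fold change was -0.08 (95% interval -0.34 to 0.18, adjusted p = 0.622). Bst2 ranged from 108 to 177 CPM in chow-fed mice (median 121) and from 117 to 175 CPM in DIO-MASH vehicle mice (median 150). Its log2 fold change was -0.17 (95% interval -0.39 to 0.05, adjusted p = 0.195). The label numbers of the mice fall into 4 series (A to D), which the labels do not call batches. Series D held 3 mice, the chow-fed mice 7 and 8 and the DIO-MASH vehicle mouse 8. No member differed between the series at an adjusted p of 0.05 (0.0899 or more), where 10.9% of all genes did. Without the mice of series D, an alternative chosen after the data were seen, Bst2 also passed (log2 fold change -0.32, adjusted p = 0.017), giving 8 genes lower. Series D, where the chow-fed mice were high, is left out of the differences that follow. Series A, B and C each hold 1 to 3 chow-fed mice and 2 to 3 DIO-MASH vehicle mice. Within them, mean log2 CPM was lower in chow by -2.78, -1.97 and -3.04 for Ifit2 and by -2.53, -0.95 and -2.85 for Oasl2. The differences were -2.09, -1.95 and -2.24 for Usp18, -1.6, -2.31 and -2.08 for Ifit3, -1.54, -1.47 and -1.53 for Ifit1, -1, -1.48 and -1.46 for Isg15, and -0.98, -1.31 and -1.15 for Rsad2.

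**Figure D2:**
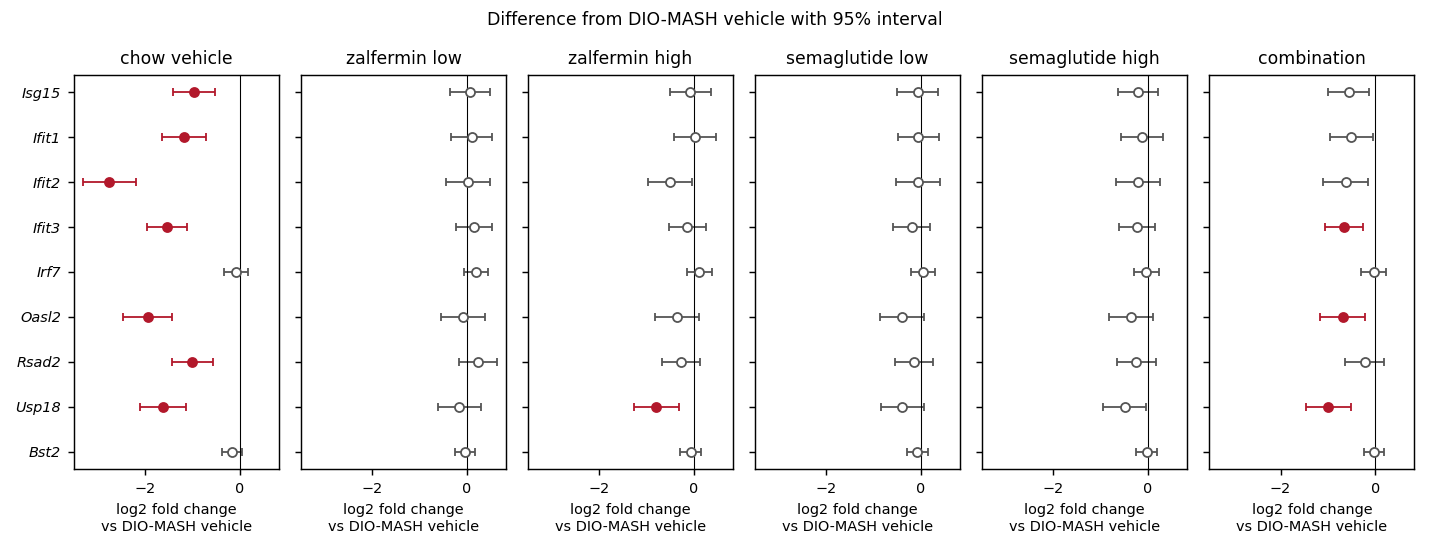
Log2 fold change of each gene against DIO-MASH vehicle (horizontal axis) with its 95% interval, one panel per group. Filled red points passed an adjusted p of 0.05: 7 in chow, 3 in the combination and 1 in zalfermin high.

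The treated groups were compared with DIO-MASH vehicle to ask how these genes differed under each treatment. The paper reports that the treated mice also lost body weight, most under the combination and the high doses. Body weight was not part of these tests, so drug and weight loss cannot be told apart here. Under the combination, 3 of 9 genes fell, Usp18, Oasl2 and Ifit3, and none rose, where 10.9% of all genes tested were lower and 20.9% changed. The median log2 fold change of the 9 genes was -0.56, beside -0.03 over all genes. Usp18, the ISG15-removing protease, ranged from 2.59 to 13 CPM in the combination group (median 6.93). Of the 8 mice, 7 lay below every DIO-MASH vehicle mouse, and the level was 1.98-fold lower than in vehicle (log2 fold change -0.99, SE 0.23, adjusted p = 0.00165). Ifit3 ranged from 4.86 to 12.1 CPM (median 8.8). Of the 8 mice, 6 lay below the DIO-MASH vehicle range, with a log2 fold change of -0.66 (SE 0.2, adjusted p = 0.0123). Oasl2 ranged from 4.7 to 13.6 CPM (median 10.1), and 5 of the 8 mice lay below the DIO-MASH vehicle range. Its log2 fold change was -0.69 (SE 0.24, adjusted p = 0.0305). The Oasl2 call was lost with number series as a covariate (adjusted p = 0.0586), with runs of consecutive label numbers as a block (0.0857, chosen after the data were seen) and without any of 4 mice: combination mouse 3 (adjusted p = 0.0809), 5 (0.0594) or 6 (0.0588), or DIO-MASH vehicle mouse 6 (0.0656). Series A, B and C hold 4, 2 and 2 combination mice. Within them, the differences in mean log2 CPM were -0.97, -1.42 and -1.08 for Usp18, -0.67, -0.43 and -0.92 for Ifit3, and -0.58, -1 and -0.8 for Oasl2.

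The members Ifit2, Isg15 and Ifit1 had values that missed the threshold. Ifit2 ranged from 2.93 to 12.6 CPM in the combination group (median 8.88), with a log2 fold change of -0.62 (SE 0.24, adjusted p = 0.0517). Isg15 ranged from 2.85 to 10.4 CPM (median 5.6), with a log2 fold change of -0.56 (SE 0.22, adjusted p = 0.0566). Both passed with DESeq2's Wald test and with a stricter filter, which gave 5 of 9 members in each. Leaving out single mice, Ifit2 passed in 5 of 24 fits (adjusted p of 0.022 without combination mouse 2) and Isg15 in 4 of 24 (0.0128 without combination mouse 6). Ifit1 ranged from 3.01 to 13.7 CPM (median 9.93), with a log2 fold change of -0.5 (SE 0.22, adjusted p = 0.101). Rsad2 (log2 fold change -0.22, adjusted p = 0.46), Irf7 (-0.03, 0.891) and Bst2 (-0.02, 0.899) gave adjusted p-values further from it. Combination mouse 3 was the lowest of its group in 7 of the 9 genes.

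Under zalfermin high, 1 of 9 genes fell, where 8.68% of all genes tested were lower and 17.2% changed. That gene was Usp18, which ranged from 6.14 to 11.5 CPM (median 7.16). Of the 8 mice, 6 lay below the DIO-MASH vehicle range, and the log2 fold change was -0.79 (SE 0.23, adjusted p = 0.0128). Within series A, B and C the difference in mean log2 CPM was -0.61, -0.72 and -1.25. Ifit2 had a log2 fold change of -0.51 (SE 0.24, adjusted p = 0.136), and the other members had adjusted p-values of 0.317 or more. Under semaglutide high, no member passed, where 2.43% of all genes changed. Its lowest adjusted p was 0.253, for Usp18 (log2 fold change -0.49, SE 0.23). An unadjusted p under 0.05 was found for 1 of the 9 genes, beside 2390 of all genes tested. Under zalfermin low, where 0.468% of all genes changed, and semaglutide low, where 0% of all genes changed with edgeR (31 with DESeq2, and 1222 at an unadjusted p under 0.05), no member passed. No member had an unadjusted p under 0.05 in either group, and DESeq2's Wald test also called none. In zalfermin low, 1593 of all genes tested had an unadjusted p under 0.05.

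**Figure D3:**
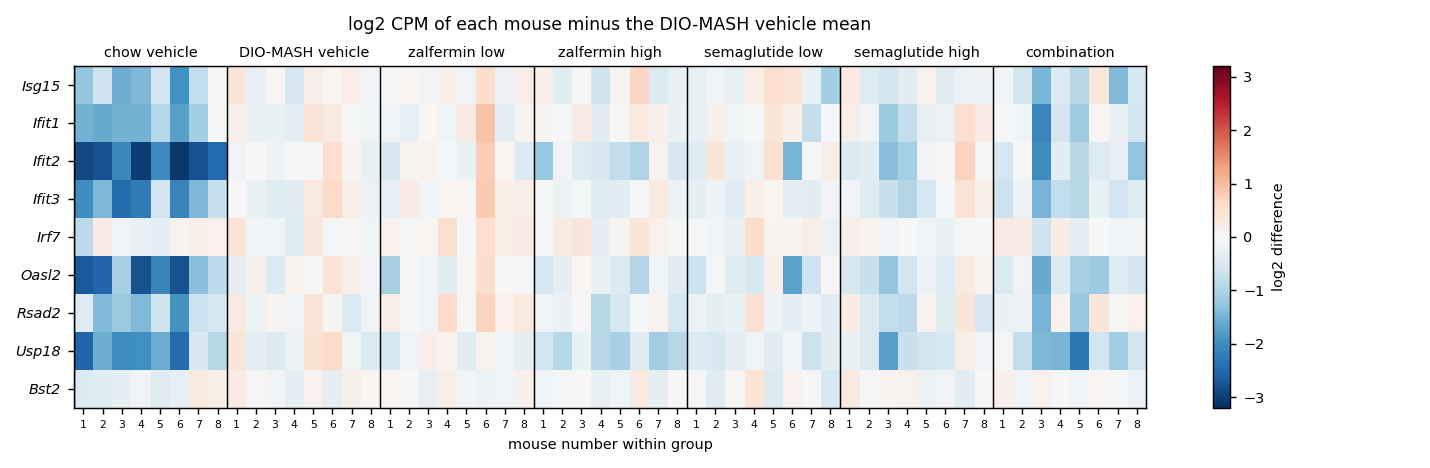
Log2 CPM of each of 56 mice (columns, by group) minus the DIO-MASH vehicle mean, for each gene (rows), blue for lower and red for higher. Most chow-fed mice are blue for 7 genes, but chow-fed mouse 8 is pale for Ifit1 and Isg15. Irf7 and Bst2 are pale throughout, and combination mouse 3 and zalfermin low mouse 6 stand out from their groups.

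Adding semaglutide to low-dose zalfermin was tested as the combination against zalfermin low. Of the 9 genes, 2 were lower in the combination, where 3.35% of all genes were lower and 6.62% changed. Ifit3 ranged from 11.5 to 24.7 CPM under zalfermin low (median 15.2), and the log2 fold change was -0.81 (SE 0.2, adjusted p = 0.00692). Usp18 ranged from 9.03 to 15.7 CPM under zalfermin low (median 12.3), and the log2 fold change was -0.82 (SE 0.23, adjusted p = 0.0221). These comparisons share the combination mice with the one above. No member passed when the combination was set against semaglutide low (4.21% of all genes changed), zalfermin high (0.503%) or semaglutide high (1.89%). The lowest adjusted p of a member in these 3 comparisons was 0.153, 0.26 and 0.3. In turn, 4, 3 and 2 members had an unadjusted p under 0.05, beside 2489, 1544 and 2028 of all genes tested.

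The low-dose interaction asks whether the combination differed from the sum of the 2 low-dose effects on the log2 scale. No member passed, where 0.0142% of all genes did. An unadjusted p under 0.05 was found for 1 of 9 members, beside 952 of all genes tested. Of the 9 estimates, 8 were below 0. The lowest was Ifit3 with -0.62 (95% interval -1.17 to -0.06, adjusted p = 0.665). For Usp18 it was -0.42 (95% interval -1.08 to 0.23, adjusted p = 0.908). No member passed between the doses of one agent. Zalfermin high against low, where 1.84% of all genes changed, gave a lowest adjusted p of 0.176. There, 3 members had an unadjusted p under 0.05, beside 1906 of all genes tested. Semaglutide high against low, where 0% of all genes changed with edgeR, gave an adjusted p of 0.999 for every member. There, 0 members had an unadjusted p under 0.05, beside 549 of all genes tested.

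Compared with chow, the combination still had higher levels of 6 of 9 genes, where 17.4% of all genes were higher. Ifit2 kept the widest gap. Its combination mice did not overlap with the chow-fed mice, as for 1.26% of all genes in this direction, and it was 4.38-fold higher (log2 fold change 2.13, SE 0.28, adjusted p = 7.65e-08). Usp18 had the narrowest gap among the 6 (log2 fold change 0.64, SE 0.25, adjusted p = 0.0433). Isg15 did not pass (log2 fold change 0.41, 95% interval -0.05 to 0.87, adjusted p = 0.168). In each of the other 4 treated groups, 7 genes were higher than in chow, where 25.1% (zalfermin low), 24.4% (semaglutide low), 19.7% (zalfermin high) and 21.3% (semaglutide high) of all genes were higher. In order of mean level, Usp18 ran from chow vehicle (4.56 CPM) through the combination (7.06), zalfermin high (8.08), semaglutide high (9.9), semaglutide low (10.6) and zalfermin low (12.5) to DIO-MASH vehicle (14). Of the neighbours in this order, chow vehicle and the combination differed, and the others had adjusted p-values of 0.765 or more.

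The genes also moved together from mouse to mouse within groups. Pearson's r was computed over 56 mice for all 36 pairs of genes after each group's mean was subtracted from log2 CPM. Its median was 0.46, and 27 of 36 pairs passed an adjusted p of 0.05 by permutation (100000 permutations, two-sided). By Spearman's rho 27 pairs passed as well, and 26 passed by both. Pairs of other genes were not computed, so these counts have no share over all genes beside them. The permutations compare each r with no correlation, and the pairs share the libraries' differences in depth. Ifit1 and Ifit3 were the closest pair, with r = 0.77 (rho = 0.761, permutation p adjusted over the 36 pairs = 3.6e-05, the smallest these permutations gave). Without the 2 mice farthest from the median of Ifit1, r was 0.714. Within number series A, B and C it was 0.749, 0.78 and 0.787. Ifit2 and Oasl2 formed another close pair, with r = 0.747 (rho = 0.737, adjusted permutation p = 3.6e-05), and r was 0.682 without the 2 farthest mice. Within the series it was 0.812, 0.84 and 0.714. Neither went with Isg15, for which r was 0.11 with Ifit2 (rho = 0.0859, adjusted permutation p = 0.442) and 0.118 with Oasl2 (rho = 0.0789, adjusted permutation p = 0.422). Ifit2 and Oasl2 went with Ifit1, Ifit3 and Usp18 over all 56 mice, but not within series B (15 mice), where r was 0.00659, 0.0532 and -0.0793 for Ifit2 and -0.169, -0.288 and -0.188 for Oasl2. Bst2 went with Irf7 (r = 0.472, rho = 0.424, adjusted permutation p = 0.00042) and with Isg15 (r = 0.356, rho = 0.332, adjusted permutation p = 0.00979). Without the 2 farthest mice, r was 0.52 and 0.303. Within the series, it was 0.401, 0.7 and 0.249 with Irf7 and 0.218, 0.478 and 0.151 with Isg15. Its lowest r was -0.431, with Ifit2 (rho = -0.433, adjusted permutation p = 0.00147), which was negative in all 3 series (-0.279, -0.574 and -0.522). With Ifit1, Ifit3, Rsad2 and Usp18, the r of Bst2 did not pass over all 56 mice and turned sign between series. It was 0.37, 0.306, 0.389 and 0.522 in series B, and -0.375, -0.474, -0.428 and -0.457 in series C.

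The 7 genes that changed with diet varied widely between mice of one group. Their biological coefficients of variation were 25.9% to 32.1%, against medians of 16.3% to 19.4% over the 500 genes nearest in level to each. Irf7 had 17.8% (median of its neighbours 13.3%) and Bst2 15.4% (13.7%). The genes whose group-centred levels were most like the mean of the 9 members over 56 mice were Lgals3bp (r = 0.773), Oas3 (0.723), Samhd1 (0.71), Psmb9 (0.699), Trim12a (0.698), Uba7 (0.697), Slfn8 (0.695), Shisa5 (0.693), Ifi203 (0.676) and Ifit3b (0.672). The 5 with the lowest r were Zfp970 (-0.712), Acvr2a, Ppfia1, Dcaf10 and Ddx3x (-0.62). These values come from the same 56 libraries and share their differences in depth, and they are given as a description.

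The wider interferon pathway was read from lists of its parts. Of 21 interferon genes, none passed the filter on low counts, and 17 had no read in any mouse. Ifng, which encodes interferon gamma, had 43 reads in 28 of 56 mice, with at most 4 in one mouse. Ifnk had 7 reads, Ifnz 4 and Ifna7 1. At this depth no interferon transcript could be compared between groups.

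The counts for chow-fed livers stand beside 55.4% of all genes that changed in that comparison. Of the 6 receptor genes, 3 were lower and 1 higher in chow-fed livers. Il10rb, a subunit of the lambda interferon receptor, was lower (log2 fold change -1.3, adjusted p = 3.12e-08), as were Ifngr1 (-0.85, 5.32e-06) and Ifngr2 (-0.34, 0.0285), while Ifnar2, a type I receptor subunit, was higher (0.39, 1.17e-04). Ifngr2 was also lower in the combination (-0.6, 0.00103) and in zalfermin high (-0.53, 0.00381). Among the JAK-STAT genes, Tyk2, a kinase of the type I receptor, was lower in the combination (-0.32, 0.00199). Stat2 and Irf9, which belong to the type I complex, did not pass in any comparison with DIO-MASH vehicle.

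Among the other interferon regulatory factors, Irf2, Irf3 and Irf5 were higher and Irf8 and Irf4 lower in chow-fed livers. Irf8, a factor of myeloid cells, had a log2 fold change of -1.53 (adjusted p = 3e-07). Irf2, a repressor of interferon-responsive genes, had 0.52 (adjusted p = 1.15e-04). It was also higher in zalfermin low (0.45, 0.0429), the combination (0.4, 0.00857), zalfermin high (0.52, 6.97e-04) and semaglutide high (0.45, 0.0206). Of 18 sensors and adaptors of foreign nucleic acid, 12 were lower and 2 higher in chow-fed livers, with Tlr9 (-3.27, 1.49e-10), Tlr7 (-2.61, 1.49e-10) and Tmem173, which encodes STING (-2.16, 5.19e-10), leading by adjusted p. In the combination, where 20.9% of all genes changed, 1 of 18 passed, Mavs, which was higher (0.29, 0.0157). Of 7 feedback inhibitors, 3 were lower in chow-fed livers, Samhd1, Ptpn6 and Socs1. Of all genes tested, 28.9% were lower and 55.4% changed in that comparison. Of the 3 enzymes that attach ISG15, Uba7 (-0.71, 0.00154) and Herc6 (-0.41, 0.0186) were lower in chow-fed livers, and none passed in the treated groups.

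Among 74 other type I interferon-stimulated genes, 55 were lower and 6 higher in chow-fed livers, with a median log2 fold change of -0.87. Of all genes tested, 28.9% were lower and 55.4% changed there. The smallest adjusted p-values were those of Lgals3bp (-1.31, 2.01e-13), Ifi44 (-2.57, 2.33e-12) and Ifi204 (-1.71, 8.9e-12). In the combination 17 were lower and 3 higher (median -0.32), where 10.9% of all genes were lower and 20.9% changed. They were led by Lgals3bp (-0.64, 3.14e-05), Slfn9 (-0.89, 2.38e-04) and Oas1c (-1.3, 3.4e-04). In zalfermin high 8 were lower and 3 higher (median -0.06), led by Gm4951 (0.62, 4.95e-05), Lgals3bp (-0.6, 1.05e-04) and Apol9b (1.06, 0.00152). The share that changed was below the 17.2% over all genes. Lgals3bp, which encodes a secreted galectin-3 binding protein, ranged from 57.9 to 103 CPM in chow-fed mice, from 164 to 199 CPM in DIO-MASH vehicle mice and from 79.6 to 141 CPM in combination mice. It was the one gene of the list called in semaglutide high (-0.4, 0.0425), a count that ran from 0 to 6 over the mice left out. Among 34 genes induced by interferon gamma, 22 were lower and 3 higher in chow-fed livers (median -1.16), led by Ciita (-3.17, 2.2e-10), Tap1 (-1.18, 3.31e-08) and Gbp3 (-1.51, 1.38e-07). In the combination 6 were lower and none higher, where 10.9% of all genes were lower and 20.9% changed. They were led by Gbp9 (-0.98, 0.00132), Psmb9 (-0.75, 0.00299) and Gbp10 (-1.45, 0.00659). Without combination mouse 5 the count was 3.

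**Figure D4:**
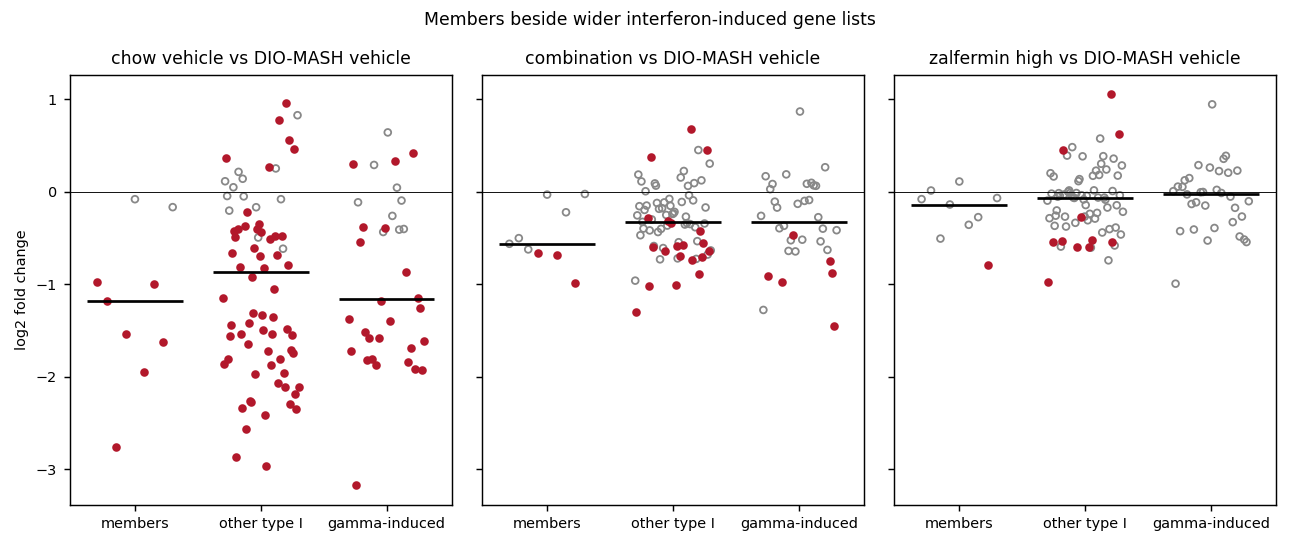
Log2 fold change against DIO-MASH vehicle (vertical axis) of the 9 genes and of 2 wider lists, for chow, the combination and zalfermin high. Red points passed an adjusted p of 0.05, open points did not, and bars are medians (-1.18, -0.87 and -1.16 in chow).

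Markers of liver cell types moved with the same comparisons. In bulk liver, fewer cells of a type and less RNA per cell cannot be told apart. Of all genes tested, 28.9% were lower and 55.4% changed in chow-fed livers. These shares were 10.9% and 20.9% in the combination, and 8.68% and 17.2% in zalfermin high. Of 9 plasmacytoid dendritic cell markers tested, 8 were lower and 1 higher in chow-fed livers, and 3 were lower in the combination. Their summed level was 24.9 to 46.4 CPM in chow-fed mice, 105.3 to 227 CPM in DIO-MASH vehicle mice and 36.1 to 97 CPM in combination mice. It was 46.4 to 72.4 CPM in zalfermin high and 35.9 to 114 CPM in semaglutide high mice. Ly6d was lower in zalfermin high (log2 fold change -3.81, adjusted p = 9.35e-07) and semaglutide high (-1.83, 0.0279). Il3ra was lower in zalfermin high (-0.68, 0.011). Siglech, the defining marker, averaged 0.208 CPM in chow-fed and 0.834 CPM in DIO-MASH vehicle livers, with at most 21 reads in a DIO-MASH vehicle mouse. In the combination Siglech did not pass (log2 fold change -0.33, adjusted p = 0.569). Much of the summed level in DIO-MASH vehicle was Ly6d, which is not expressed by plasmacytoid dendritic cells alone and averaged 88.7 CPM in DIO-MASH vehicle, 15.5 CPM in combination and 0.987 CPM in chow-fed livers. Of 14 monocyte and recruited macrophage markers, 11 were lower in chow-fed livers and 5 in each of the combination and zalfermin high. Their summed level was 83.5 to 315 CPM in chow-fed mice and 652 to 1171 CPM in DIO-MASH vehicle mice. Much of it was Spp1, which averaged 350 CPM in DIO-MASH vehicle and 33 CPM in chow-fed livers. Spp1 also stands on the list of cholangiocyte (bile duct cell) markers. Of 12 T and NK cell markers, 9 were lower and 1 higher in chow-fed livers, and none passed in the treated groups. All 12 hepatocyte markers were higher in chow-fed livers, 9 in the combination and 10 in zalfermin high, where 1 was lower. In semaglutide high, where 2.43% of all genes changed, those higher included Hnf4a (0.56, 0.0184), Cyp2e1 (0.59, 0.0257) and Cps1 (0.76, 0.0262). Cps1 was also higher in zalfermin low (0.98, 0.0117). Of 10 Kupffer cell markers, 3 were lower and 3 higher in chow-fed livers, near the share over all genes that changed. In the combination 1 was lower and 3 higher, led by C6 (log2 fold change -0.89, adjusted p = 4.97e-04), Clec4f (0.94, 0.0275) and Timd4 (1.58, 0.0292). Of 11 stellate cell markers, 8 were lower in chow-fed livers, 7 in the combination and 4 in zalfermin high, led in the combination by Col3a1 (-2.33, 2.93e-07), Colec11 (-0.87, 1.45e-05) and Col1a1 (-2.15, 3.96e-05). Their summed level was 211 to 389 CPM in chow-fed mice, 950.3 to 1407 CPM in DIO-MASH vehicle mice and 340.5 to 690.2 CPM in combination mice. Col3a1 (-1.26, 0.0189) and Col1a1 (-1.27, 0.0493) were also lower in semaglutide high. The part of these cell types in the interferon-stimulated gene levels was not tested.

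**Figure D5:**
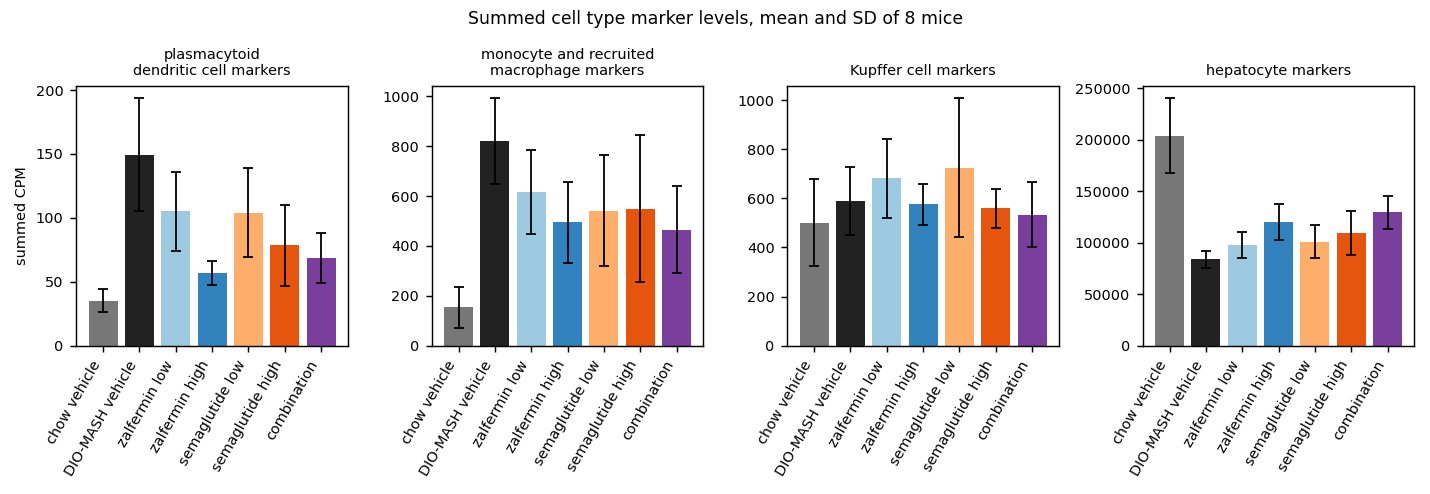
Summed CPM of the markers of 4 cell types (vertical axes, linear, from 0) by group, as mean and SD of 8 mice. The summed plasmacytoid dendritic cell and monocyte markers are lowest in chow vehicle and highest in DIO-MASH vehicle, and the hepatocyte markers run the other way.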

How the data were processed

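Liver RNA of 56 mice was sequenced by the authors with a stranded mRNA kit on a NextSeq 500. According to the methods, alignment used STAR and a GRCm38 index (Ensembl 89), while the submitters' processing notes name Trim Galore 0.6.4 and Salmon 1.9.0. The program that made the count table is not given in the sources used here. The deposited values are raw read counts per gene, not normalized. Groups came from the treatment label of each sample. The low-dose semaglutide mouse that the authors excluded is not marked in the table, so all 56 mice were used and each was left out in turn where it bears on a comparison. The 9 genes and all gene lists were chosen with earlier results of these data known.

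A gene was tested if at least 3 mice had at least 5 reads, which left 14105. Tests used edgeR 4.0.16 under R 4.3.3, with TMM scaling, a single quasi-likelihood fit over 7 groups and Benjamini-Hochberg adjustment. The SE is the log2 fold change over the square root of F. Log2 CPM used a prior count of 2. The script was tested on simulated counts. Alternatives were DESeq2 1.42.0 (Wald test, or its size factors in edgeR), no filter beyond 1 read, a stricter filter (10 reads in 8 mice), number series as a covariate, only the 2 groups compared, and each mouse left out. Leaving out series D, and a block of 13 runs of consecutive label numbers (a new run at a gap of 5 or more), were added after the data were seen. All members, and genes of the ligand, receptor, JAK-STAT, regulatory factor and ISG15 lists, could be named, and from other lists the 3 called genes of smallest adjusted p in each comparison with DIO-MASH vehicle. Siglech and Spp1 are named to describe the marker lists. The 10 genes most alike and 5 least alike were ranked by Pearson's r. Replicate numbers are accession order, so p-values measure the spread between mice of a group. Correlations used Python 3.11.15 with numpy 2.4.6, and figures matplotlib 3.10.9. Mice of a group differed by more than counting noise (chi-square per degree of freedom of 7.57 or more for every pair). Some genes of the JAK-STAT and regulatory factor lists are not reported here.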

Additional observations from a re-analysis of the deposited data

Results flagged for a closer look

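In 7 of 63 sets of 8 mice (9 genes in 7 groups), the highest or lowest mouse lay far from its neighbour in the group by Dixon's test, where chance flags about 3.15. Zalfermin low mouse 6 was highest, at 25.1 CPM for Ifit1 and 24.7 CPM for Ifit3. Semaglutide low mouse 6 was lowest, at 4.34 CPM for Ifit2 and 4.34 CPM for Oasl2, and semaglutide low mouse 4 was highest at 17 CPM for Rsad2. DIO-MASH vehicle mouse 6 was highest at 18.2 CPM for Ifit2. Semaglutide high mouse 3 was lowest at 3.9 CPM for Usp18.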

How the results depend on the processing

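The alternatives were those named in the processing summary. Leaving aside single mice, 130 counts of called genes stayed within 1.5 times their value and 11 moved. Of the fold changes of single members, 346 kept direction and side of the threshold. Combination members called rose from 3 to 5 with the stricter filter and to 5 with DESeq2's Wald test. With only the 2 groups compared, zalfermin high had 2 members, 17 other type I genes (11 before) and 1 gamma-induced gene (0 before). With number series as a covariate it had 1 gamma-induced gene. Semaglutide high had 1 other type I gene, against 0 without the filter, 0 with the series covariate and 5 with DESeq2. With that covariate, small log2 fold changes turned sign: Ifit2 (-0.00466) and Bst2 (0.00369) in zalfermin low, Ifit1 in semaglutide low (0.0386) and Bst2 in the combination (0.00317). The cause of these shifts was not tested.

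Leaving out 1 mouse at a time, the counts ran from 3 to 9 gamma-induced genes in the combination, from 7 to 13 other type I genes in zalfermin high and from 0 to 6 in semaglutide high. Combination members ran from 2 to 4. The log2 fold changes near 0 crossed it. In zalfermin low they ran from -0.0143 to 0.13 for Isg15, -0.0657 to 0.17 for Ifit1, -0.12 to 0.12 for Ifit2, -0.196 to 0.0289 for Oasl2 and -0.0871 to 0.000865 for Bst2. In semaglutide low they ran from -0.17 to 0.0359 for Isg15, -0.12 to 0.0207 for Ifit1, -0.17 to 0.0524 for Ifit2 and -0.0542 to 0.11 for Irf7. In the combination they ran from -0.0878 to 0.0484 for Irf7 and -0.0686 to 0.0279 for Bst2. Ifit1 in zalfermin high ran from -0.0366 to 0.0889. In semaglutide high they ran from -0.0967 to 0.0374 for Irf7 and -0.0797 to 0.0182 for Bst2. In chow, Irf7 ran from -0.14 to 0.00525.

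Replicate numbers only follow the order of accession and pair no mice. The label numbers run in consecutive sets, and the labels do not say what a set shares. With 13 such runs as a block, chosen after the data were seen, combination members called stayed at 3, with Ifit2 (adjusted p = 0.0432) in place of Oasl2 (0.0857). Zalfermin high had 2 gamma-induced genes and semaglutide high 0 other type I genes. Small log2 fold changes turned sign: in zalfermin low Ifit2 (-0.0399), Oasl2 (0.0119), Usp18 (0.0751) and Bst2 (0.104), in semaglutide low Isg15 (0.101), Ifit1 (0.141) and Bst2 (0.0455), in the combination Irf7 (0.0812) and Bst2 (0.11), and in semaglutide high Irf7 (0.0782) and Bst2 (0.0509).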
